A study of Homo sapiens with 25 samples.

Results

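Transcripts of 31 genes of the integrated stress response were followed in 2 lung cancer lines treated with antisense oligonucleotides (ASOs) against 2 long noncoding RNAs. The genes were taken by name: the transcription factor ATF4, its partners, and targets in amino acid synthesis, transport and one-carbon metabolism. All 31 were among the 59427 gene names of the deposited expression table, and all 31 passed the filter on low values in both lines. The lines were A549, a lung adenocarcinoma line, and NCI-H460, a large cell carcinoma line. Cells had been transfected for 24 h with 25 nM of candidate 42 ASO3, candidate 42 ASO5, candidate 240 ASO1, candidate 240 ASO3, or a neutral control ASO. Candidates 42 and 240 carry the names CHiLL1 and CHiLL2 in the labels. Each group held 3 libraries in A549 (replicates 3, 4 and 5) and 2 in NCI-H460 (replicates 1 and 2). Nothing in the labels tells whether replicate numbers stand for separate cultures, so p-values measure only the spread between these libraries. In bulk RNA of this kind, fewer cells of a type and less RNA per cell cannot be told apart. Levels are TPM, a relative abundance corrected for transcript length, as rescaled by the authors. A member is called "risen", "fallen", "higher" or "lower" only at a limma adjusted p under 0.05.

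The integrated stress response begins with kinases that sense amino acid shortage, unfolded protein, heme shortage or double-stranded RNA and that phosphorylate the translation factor eIF2. General translation then drops, while upstream reading frames in its leader let ATF4 protein be made. ATF4, usually paired with a C/EBP protein, switches on genes that import amino acids, make serine, glycine and asparagine, and charge tRNAs. It also switches on DDIT3 (CHOP), TRIB3 and CHAC1, which dampen the response or turn it towards cell death, and PPP1R15A (GADD34), which brings the phosphatase back to eIF2. Because ATF4 is controlled mainly in translation, its own transcript is a poor gauge of the response, and its targets are read instead.

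The element through which ATF4 and C/EBP dimers act carries the core TGATGNAA, in which N is any base. RefSeq promoter sequences (GRCh38.p14, 250 bases before to 50 after each start) were on hand for 26 of the 31 members. Of these, 8 (30.8%) held TGATGNAA on either strand in at least 1 listed start, against 4.46% of 27305 genes with a promoter. These 8 are shown because the core is the element named for ATF4. The members were picked as ATF4 and its targets, some of them known through such elements, so the share is a description and not independent of the choice. A match is a run of letters, not a shown binding site. Each line gives the match in capitals with up to 16 bases on either side, read 5′ to 3′ along the gene. CHAC1 and SLC3A2 hold the core on the opposite strand.
ASNS: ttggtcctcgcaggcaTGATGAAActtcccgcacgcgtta
ATF3: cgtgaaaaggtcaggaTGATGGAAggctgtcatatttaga
CEBPG: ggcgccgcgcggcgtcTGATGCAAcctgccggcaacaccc
CHAC1: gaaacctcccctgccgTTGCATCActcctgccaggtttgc
JDP2: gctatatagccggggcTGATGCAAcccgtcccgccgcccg
SLC1A5: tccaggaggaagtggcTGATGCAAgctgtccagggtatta
SLC3A2: taatgtgcaggactccTTACATCAgctcc
SLC7A1: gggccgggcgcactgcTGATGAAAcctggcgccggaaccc

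The whole promoters of ASNS and CHAC1 are given because these 2 genes recur in the results that follow. The ASNS promoter is chr7:97872359-97872658 on the minus strand and the CHAC1 promoter chr15:40953221-40953520 on the plus strand, both GRCh38.p14. The first base of the match, in capitals, lies at -68 from the start in ASNS and at -209 in CHAC1.
ASNS: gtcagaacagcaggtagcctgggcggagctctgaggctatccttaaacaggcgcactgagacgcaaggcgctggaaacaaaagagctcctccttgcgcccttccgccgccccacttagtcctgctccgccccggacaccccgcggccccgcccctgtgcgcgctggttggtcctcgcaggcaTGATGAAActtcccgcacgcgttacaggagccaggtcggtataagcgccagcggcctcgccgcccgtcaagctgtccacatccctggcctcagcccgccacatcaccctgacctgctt
CHAC1: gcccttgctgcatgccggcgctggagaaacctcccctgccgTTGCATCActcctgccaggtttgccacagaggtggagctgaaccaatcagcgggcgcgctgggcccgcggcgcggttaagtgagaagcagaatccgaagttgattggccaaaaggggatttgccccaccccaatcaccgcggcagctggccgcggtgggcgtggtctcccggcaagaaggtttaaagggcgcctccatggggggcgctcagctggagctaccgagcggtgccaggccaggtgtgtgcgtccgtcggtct

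Across the 25 libraries the TPM columns summed to between 924350 and 1179224, and 23879 to 27731 gene names had a value above 0. The depth of a library cannot be read from TPM. Epithelial keratins KRT8 and KRT18 were abundant in both lines, while EPCAM and CDH1 stayed under 1 TPM in every NCI-H460 library. Of 5 leukocyte markers CD3E was at 0 in all libraries, CD68 had 19.6 to 77.4 TPM in A549 and 19.1 to 44.0 TPM in NCI-H460, and CD79A reached 4.97 TPM in A549. The 3 endothelial markers summed to at most 0.708 TPM. The 4 fibroblast markers summed to at most 0.845 TPM in A549 and to 2.95 to 7.84 TPM in NCI-H460, from LUM and PDGFRB. The part of such cells in the results was not tested. Apart from CHiLL1 and CHiLL2 the labels give no gene symbol for the targets. For AC107959.3, taken as candidate 42 from earlier work on these data, A549 levels were 0 to 1.13 TPM with ASO3 and 2.66 to 4.81 TPM with ASO5, against 5.12 to 10.6 TPM in control. For AC015712.6, taken as candidate 240, they were 0.128 to 0.249 TPM with ASO1 and 0 to 0.0297 TPM with ASO3, against 0.267 to 0.418 TPM in control. In NCI-H460 the candidate 42 ASO5 and both candidate 240 ASO groups overlapped the control for these transcripts.

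One A549 control library stood apart in this module. Control replicate 5 was the highest of the 3 A549 controls for 29 of 31 members (93.5%), against 34.7% of the 14740 genes tested. It was the highest of all 15 A549 libraries for 21 members (67.7%), against 8.03% of genes, and it lay more than 2-fold above both other controls for 11 members (35.5%), against 1.15%. The median member was 1.04 higher on the log2 scale in replicate 5 than in the mean of replicates 3 and 4, against 0.04 for all genes. In related lists replicate 5 was the highest control for 14 of 18 further ATF4 targets (median difference 0.57), 11 of 20 aminoacyl-tRNA synthetases (0.30) and 8 of 18 eIF2 genes (0.18). The ATF6 and XBP1 chaperones, the other arm of the unfolded protein response, had replicate 5 highest in 3 of 14 genes, at a median difference of -0.11.

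The pro-apoptotic factor DDIT3 had 65.1 TPM in control replicate 5, against 13.1 and 8.66 TPM in replicates 3 and 4. The glutathione-degrading enzyme CHAC1 had 54.0 TPM there, against 9.69 and 8.11 TPM, and the secreted glycoprotein STC2 had 91.1 TPM, against 17.4 and 16.1 TPM. All 3 genes therefore had their highest A549 level in a control library. The stress-induced factor ATF3 had 8.51 TPM in replicate 5, against 1.61 and 1.70 TPM. The pseudokinase TRIB3, an inhibitor of ATF4 and AKT, had 297 TPM, against 126 and 106 TPM. Asparagine synthetase, ASNS, had 104 TPM, against 37.0 and 42.3 TPM. ATF5 alone, an ATF4 target that protects mitochondria, was lowest in replicate 5, at 25.3 TPM against 38.5 and 28.6 TPM. DDIT3 overlaps MARS1 on the opposite strand by 982 bases, and how strand was handled is not known here. MARS1 had 185 TPM in replicate 5, against 128 and 126 TPM. Mitochondrial transcripts made up 9.98% of replicate 5, inside the range of 6.48% to 11.1% over all libraries. The A549 comparisons with control are therefore given with and without this library. It was singled out on these same genes, so the values without it are a description and not an independent test.

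**Figure D1:**
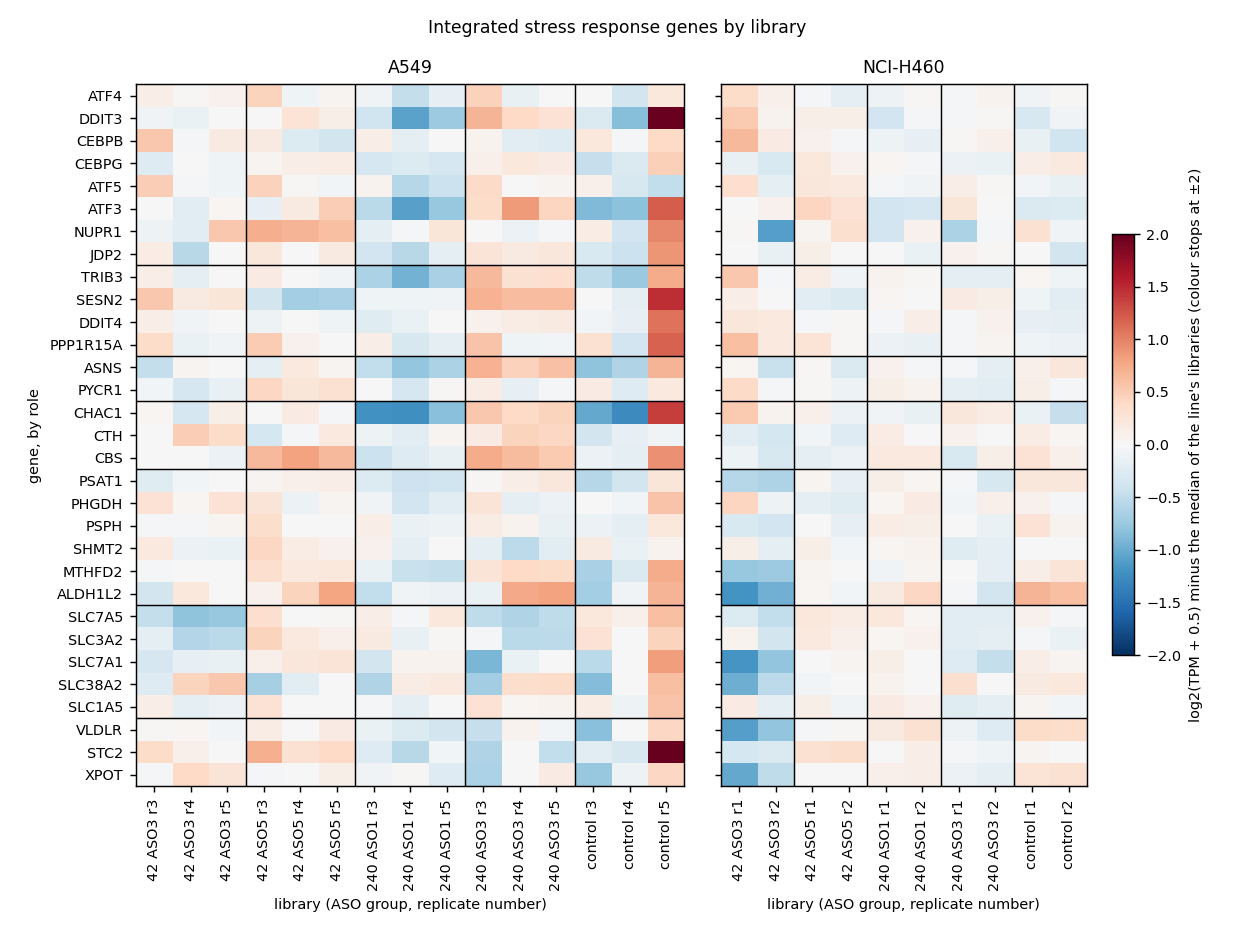
Heat map of the 31 members (down the page, grouped by role) in the 25 libraries (columns, ASO groups left and control right in each line). Colour is log2(TPM + 0.5) minus the median of the line's libraries, and A549 control replicate 5 is the column with most members far above that median, at a median member difference of 0.61.

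In A549 both chains of the LAT1 amino acid exchanger fell with candidate 42 ASO3 and with candidate 240 ASO3. The fall of the light chain held with and without control replicate 5. SLC7A5, the LAT1 light chain that brings leucine and other large neutral amino acids into the cell, had 490, 391 and 406 TPM with candidate 42 ASO3 and 481, 449 and 482 TPM with candidate 240 ASO3. The controls had 794, 735 and 1035 TPM, so neither group overlapped them. The log2 fold change was -0.99 ± 0.14 (SE, n = 3 against 3, limma adjusted p = 0.00055) with 42 ASO3 and -0.85 ± 0.14 (adjusted p = 0.0012) with 240 ASO3. It was -0.84 (adjusted p = 0.0026) and -0.70 (adjusted p = 0.0057) without control replicate 5, and both falls passed under all 12 other settings tried.

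SLC3A2, the 4F2 heavy chain that carries LAT1 to the membrane, had 560, 424 and 436 TPM with candidate 42 ASO3 and 620, 439 and 440 TPM with candidate 240 ASO3. The controls had 773, 634 and 864 TPM, again with no overlap. Its log2 fold change was -0.68 ± 0.17 (limma adjusted p = 0.020) and -0.61 ± 0.17 (adjusted p = 0.029). Without control replicate 5 these were -0.58 (adjusted p = 0.086) and -0.51 (adjusted p = 0.11), and leaving out control replicate 3 or ASO replicate 4 or 5 also ended both calls. These were the 2 members called lower, and 0 were called higher, in each of the 2 comparisons. Among all genes 3.43% were higher and 6.63% lower with 42 ASO3, and 6% higher and 7.82% lower with 240 ASO3.

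Neither chain was called against control with the other 2 ASOs. With candidate 42 ASO5 SLC7A5 had 863, 683 and 694 TPM, and with candidate 240 ASO1 it had 753, 668 and 789 TPM. Directly compared, candidate 42 ASO5 exceeded ASO3 by 0.80 ± 0.14 for SLC7A5 (limma adjusted p = 0.0025) and by 0.69 ± 0.17 for SLC3A2 (adjusted p = 0.019). The SLC3A2 call ended under 5 of 11 other settings, among them leaving out ASO5 replicate 3 or 4 or ASO3 replicate 4 or 5. Candidate 240 ASO3 lay below ASO1 for SLC7A5 by a log2 difference of -0.64 ± 0.14 (adjusted p = 0.0070), and for SLC3A2 the difference was -0.38 (adjusted p = 0.15). In a comparison added after the data were seen, candidate 42 ASO3 lay below candidate 240 ASO1 for SLC7A5 (-0.78 ± 0.14, adjusted p = 0.0029), the 1 member called there, against 6.78% of genes called lower. The ASOs against one RNA thus gave different LAT1 levels in A549.

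**Figure D2:**
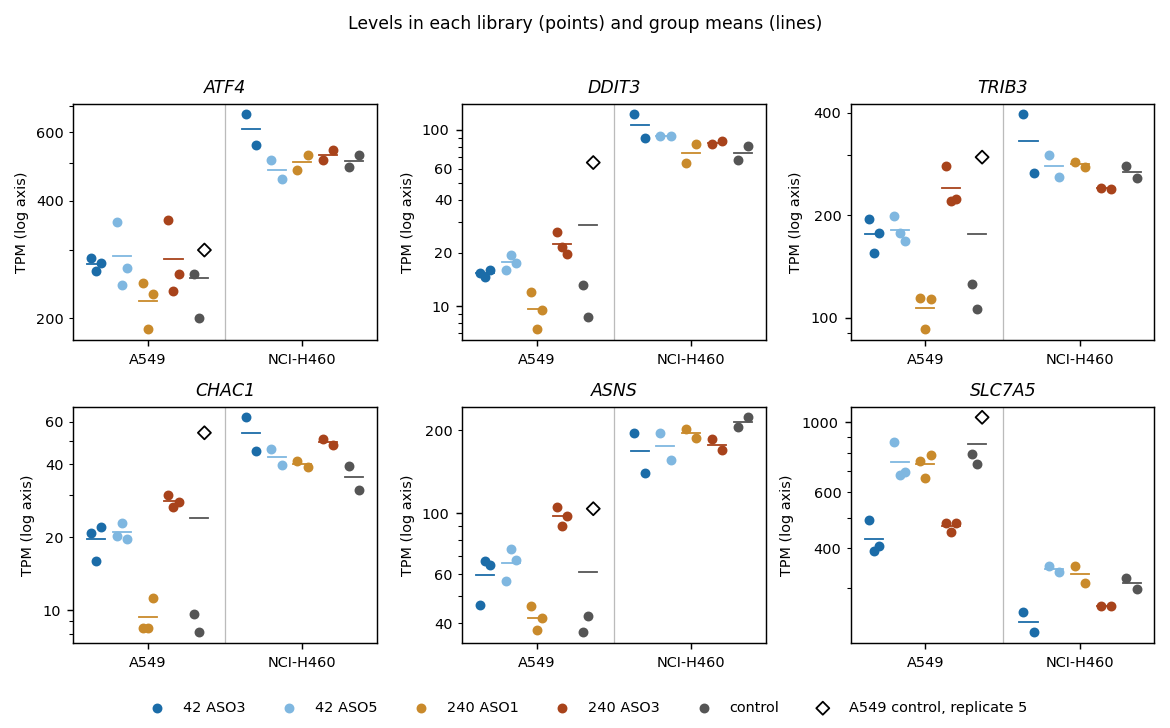
TPM on a log axis of 6 members in every library of both lines, with points for libraries, short lines for group means, and the ASO groups left of control. The open diamond marks A549 control replicate 5, which tops the A549 controls for ATF4, DDIT3, TRIB3, CHAC1, ASNS and SLC7A5, while SLC7A5 is lowest in A549 with candidate 42 ASO3 and candidate 240 ASO3.

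Candidate 240 ASO3 had higher A549 levels than ASO1 of CHAC1, ASNS and TRIB3. CHAC1 had 29.8, 26.8 and 28.0 TPM with ASO3, against 8.44, 8.41 and 11.2 TPM with ASO1 and 9.69, 8.11 and 54.0 TPM in control. ASNS had 106, 89.8 and 97.3 TPM with ASO3, against 46.0, 37.7 and 41.6 TPM with ASO1. TRIB3 had 279, 221 and 224 TPM with ASO3, against 114, 92.5 and 113 TPM with ASO1. In all 3 genes the ASO3 and ASO1 libraries did not overlap, and ASO1 lay near control replicates 3 and 4. DDIT3 had 26.2, 21.5 and 19.8 TPM with ASO3 and 12.1, 7.37 and 9.55 TPM with ASO1, and ATF4 itself had 357, 235 and 259 TPM with ASO3 and 247, 187 and 231 TPM with ASO1.

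The comparison of candidate 240 ASO3 with ASO1 uses no control library. In it 6 members were higher (19.4%, against 7.25% of all genes) and 1, SLC7A5, was lower (against 9.48%). CHAC1 was higher by 1.55 ± 0.48 on the log2 scale (limma adjusted p = 0.040), ATF3 by 1.35 ± 0.42 (adjusted p = 0.044), ASNS by 1.22 ± 0.29 (adjusted p = 0.011) and TRIB3 by 1.17 ± 0.28 (adjusted p = 0.011). CBS, which joins serine and homocysteine on the way to cysteine, was higher by 0.92 ± 0.22 (adjusted p = 0.011), and PSAT1, a serine synthesis enzyme, by 0.49 ± 0.16 (adjusted p = 0.0497). DDIT3 differed by 1.19 ± 0.49 (adjusted p = 0.12) and ATF4 by 0.34 ± 0.19 (adjusted p = 0.25), and neither passed. The median member differed by 0.27, against -0.03 for all genes, and 23 of 31 members had a positive difference, against 47% of genes. ASNS, TRIB3, CBS and SLC7A5 passed under all 11 other settings, whereas the calls of CHAC1, ATF3 and PSAT1 ended when any 1 of the 6 libraries was left out. The spread in this fit is shared over the 5 groups and so includes control replicate 5. Fitted to the 2 compared groups alone 12 members passed, a count given without the share of all genes and so not read as a result about the members. With the replicate number as a block 15 passed, 12 higher and 3 lower, against 13.2% and 16.7% of all genes.

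**Figure D3:**
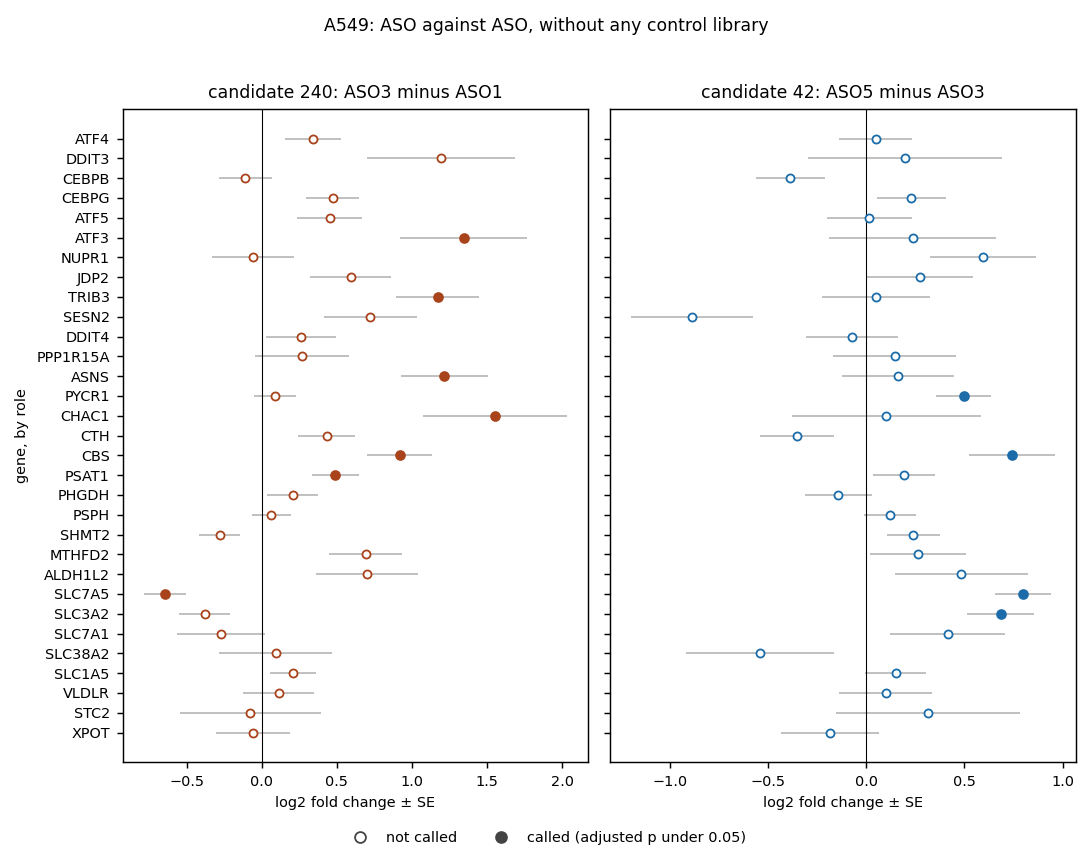
Log2 fold change ± SE of the 31 members in A549 for candidate 240 ASO3 minus ASO1 (left) and candidate 42 ASO5 minus ASO3 (right), neither of which uses a control library. Filled points are members called at an adjusted p under 0.05, with CHAC1 at 1.55 the largest on the left and SLC7A5 at 0.80 the largest on the right.

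Against control, the call on candidate 240 ASO3 turned on replicate 5. With all 3 controls ASNS differed by 0.83 ± 0.29 (limma adjusted p = 0.074), CHAC1 by 0.77 ± 0.48 (adjusted p = 0.35), TRIB3 by 0.60 ± 0.28 (adjusted p = 0.18), DDIT3 by 0.18 ± 0.49 (adjusted p = 0.87) and ATF4 by 0.16 ± 0.19 (adjusted p = 0.65). Without replicate 5 there were 10 members higher (32.3%, against 4.6% of genes) and 1 lower, SLC7A5 (against 5.83%). CHAC1 was then higher by 1.61 ± 0.16 (adjusted p = 8.0e-05), ATF3 by 1.40 ± 0.24 (adjusted p = 0.0025), ASNS by 1.29 ± 0.17 (adjusted p = 0.00041), TRIB3 by 1.05 ± 0.15 (adjusted p = 0.00069) and DDIT3 by 1.03 ± 0.21 (adjusted p = 0.0068). MTHFD2, the mitochondrial one-carbon enzyme, was higher by 0.80, CBS by 0.79, the mTORC1 inhibitor SESN2 by 0.73, PSAT1 by 0.59 and the C/EBP partner CEBPG by 0.53. ATF4 differed by 0.29 ± 0.20 and was not called (adjusted p = 0.44). Replicate 5 was singled out on these same genes, so the calls without it are a description and not an independent test. In A549 libraries with the same replicate number deviated together in this comparison (correlations of 0.283 to 0.564). With that number as a block 6 members passed with all controls. ASNS, ATF5 and CTH were higher (against 11.1% of all genes), and SHMT2, SLC3A2 and SLC7A5 lower (against 14%).

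Candidate 240 ASO1, against the same RNA, showed no such levels. With limma 0 members were called with all controls and 0 without replicate 5, and 0% of all genes passed in either fit, 2 and 0 members having an unadjusted p under 0.05. CHAC1 differed from control by -0.79 ± 0.48 with replicate 5 and by 0.06 ± 0.16 without it, ASNS by -0.39 and 0.07, TRIB3 by -0.57 and -0.12, DDIT3 by -1.01 and -0.16, and ATF4 by -0.18 and -0.05. In both fits PHGDH was the 1 member whose 3 ASO1 libraries (78.7, 63.7 and 71.8 TPM) all lay below the controls (82.7, 79.8 and 123 TPM), as did 2.43% of all genes with all controls and 5.08% without replicate 5. PHGDH takes the first step of serine synthesis.

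In A549, CHAC1 had 20.9, 15.9 and 22.0 TPM with candidate 42 ASO3 and 20.3, 22.8 and 19.7 TPM with candidate 42 ASO5. These levels lay above control replicates 3 and 4 (9.69 and 8.11 TPM) and below replicate 5. With all controls the log2 differences for ASO3 were 0.24 for CHAC1, 0.15 for TRIB3, 0.10 for ASNS, -0.34 for DDIT3 and 0.14 for ATF4. None of these passed. For ASO5 they were 0.35, 0.20, 0.27, -0.15 and 0.19 in the same order, with limma calling 0 of 31 members (2 at an unadjusted p under 0.05), against 3.82% of genes in either direction.

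Without control replicate 5, candidate 42 ASO3 had 2 members higher (against 2.37% of genes) and 1 lower (against 4.73%): CHAC1 by 1.09 ± 0.16 (limma adjusted p = 0.0016), TRIB3 by 0.60 ± 0.15 (adjusted p = 0.028), and SLC7A5. Candidate 42 ASO5 had 8 higher (25.8%, against 0.8% of genes) and 0 lower. These were CHAC1 by 1.19 ± 0.16 (adjusted p = 0.0028), ATF3 by 1.02 ± 0.24 (adjusted p = 0.046), CBS by 0.85 ± 0.12 (adjusted p = 0.0026), ASNS by 0.73 ± 0.17 (adjusted p = 0.044), MTHFD2 by 0.72, TRIB3 by 0.65, PSAT1 by 0.56 and CEBPG by 0.48. DDIT3 differed by 0.51 and 0.70 with ASO3 and ASO5 and ATF4 by 0.27 and 0.32, none of them called. The A549 controls are shared by all 4 ASOs, so gains that appear together when a control is removed are not separate observations. Replicate 5 was also singled out on these same genes, so the gains are no independent test.

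Between the candidate 42 ASOs, ASO5 had 4 members higher than ASO3 (12.9%, against 6.02% of genes) and 0 lower. Besides SLC7A5 and SLC3A2 these were CBS, with 30.7, 34.3 and 30.5 TPM for ASO5 against 19.4, 19.2 and 17.8 TPM for ASO3 (0.74 ± 0.22, limma adjusted p = 0.043), and PYCR1, the last enzyme of proline synthesis, with 130, 115 and 121 TPM against 93.4, 77.2 and 88.1 TPM (0.50 ± 0.14, adjusted p = 0.037). The groups did not overlap in either gene, yet leaving out single libraries ended both calls. SESN2 ran the other way, with 6.07, 4.80 and 4.90 TPM for ASO5 and 11.8, 9.06 and 9.56 TPM for ASO3, a difference of -0.89 that did not pass (adjusted p = 0.087). CHAC1 (0.10), ASNS (0.16), TRIB3 (0.05), DDIT3 (0.20) and ATF4 (0.05) differed little beside standard errors of 0.19 to 0.49. With the replicate block, whose numbers pair these libraries, 7 members passed, 5 higher and 2 lower, against 11.9% and 9.45% of all genes. In a further comparison added after the data were seen, candidate 42 ASO5 against candidate 240 ASO1, CBS was the 1 member called higher (0.98 ± 0.22, adjusted p = 0.024), against 1.37% of genes. That call ended when any 1 of the 6 libraries was left out. With the replicate block, whose numbers pair these libraries, 4 members were higher (against 4.78% of all genes): CBS, ATF5, PSAT1 and PYCR1.

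**Figure D4:**
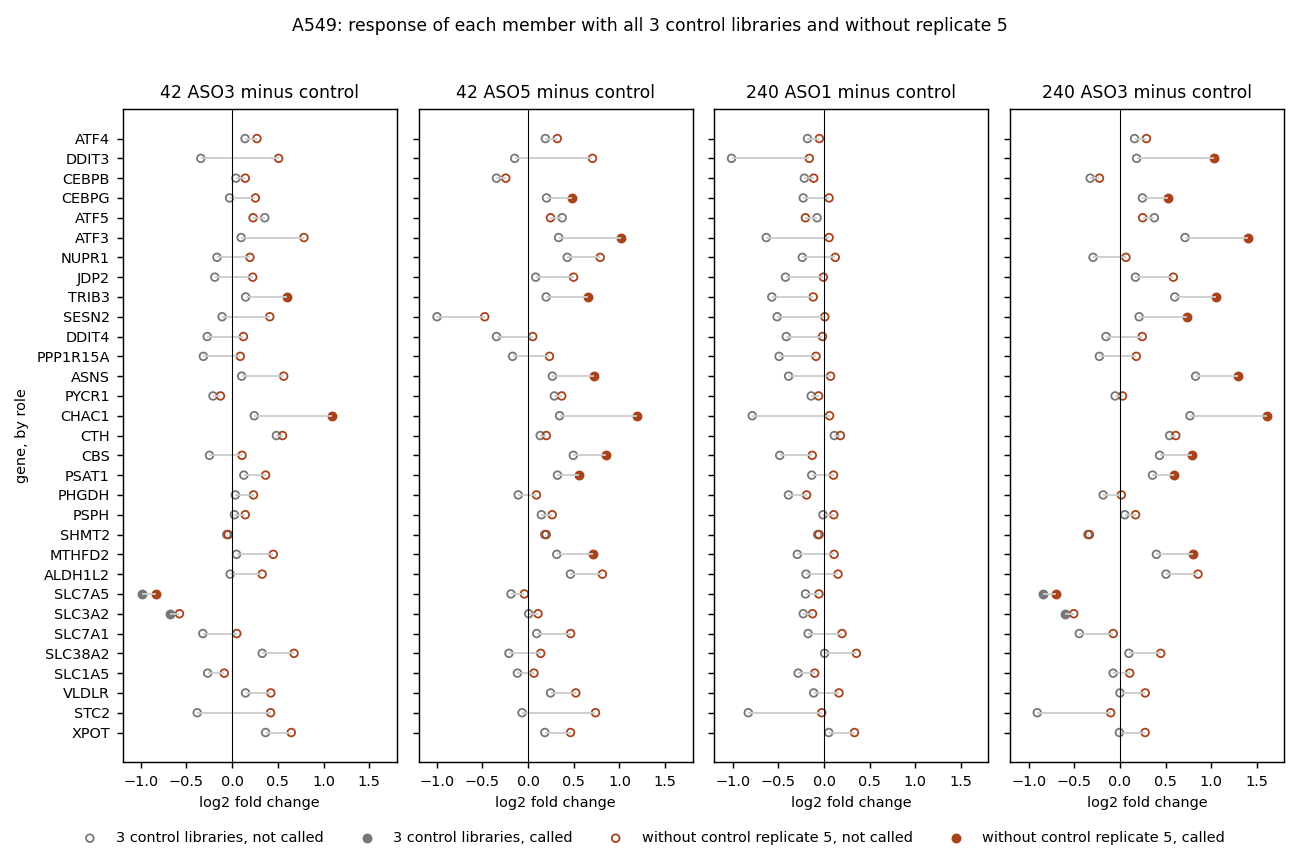
Log2 fold change of each member against control in A549 for the 4 ASOs, with all 3 control libraries (grey) and without control replicate 5 (brown). Filled points are called, and without replicate 5 there are 8 members called higher for 42 ASO5 and 10 for 240 ASO3, against 0 for each with all controls.

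Some A549 members lay clear of every control without passing the unblocked test. CTH, the enzyme that releases cysteine from cystathionine, lay above every control with candidate 42 ASO3 (2.54, 3.77 and 3.40 TPM) and with candidate 240 ASO3 (2.92, 3.66 and 3.54 TPM), against 1.86, 2.20 and 2.40 TPM. These differences passed with the replicate block (0.48 ± 0.15, limma adjusted p = 0.039, and 0.54 ± 0.15, adjusted p = 0.020), and not with the block and without control replicate 5 (adjusted p = 0.091 and 0.054). The replicate number did not pair candidate 42 ASO3 with control (lowest correlation 0.0897), so its blocked values rest on a shared number only. PYCR1 lay above and SESN2 below every control with candidate 42 ASO5, and SHMT2, the mitochondrial serine hydroxymethyltransferase, below every control with candidate 240 ASO3 (97.0, 75.9 and 93.2 TPM against 124, 100 and 115 TPM), a difference that passed with the block (adjusted p = 0.0053) and with the block without replicate 5 (adjusted p = 0.027). Non-overlap of this kind was met by 10.6% to 14.4% of genes in each single direction for these 3 ASOs. Of the 31 members, 1 lay above and 2 below with 42 ASO3, 1 and 1 with 42 ASO5, and 1 and 3 with 240 ASO3. SESN2 differed by -0.997 ± 0.31 with 42 ASO5 (adjusted p = 0.0996), and by -0.48 (adjusted p = 0.12) without replicate 5. STC2 had 13.1, 20.2 and 14.2 TPM with 240 ASO3, against 17.4, 16.1 and 91.1 TPM in control, a difference of -0.91 ± 0.47 (adjusted p = 0.24), and of -0.10 without replicate 5. The cationic and neutral transporters SLC7A1, SLC38A2 and SLC1A5, the C/EBP factor CEBPB, the mTORC1 inhibitor DDIT4, the phosphatase subunit PPP1R15A, the stress-linked nuclear proteins NUPR1 and JDP2, the serine phosphatase PSPH, the folate enzyme ALDH1L2, the lipoprotein receptor VLDLR and the tRNA exporter XPOT were called in no A549 comparison with control, with or without replicate 5.

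NCI-H460 control cells started from higher levels of most members. In a comparison added after the data were seen, 6 members were higher in A549 control than in NCI-H460 control (against 36.4% of genes) and 18 were lower (58.1%, against 18.4%). CTH had 1.86, 2.20 and 2.40 TPM in A549 control and 28.0 and 25.8 TPM in NCI-H460 control, a log2 difference of -3.37 ± 0.17 (limma adjusted p = 1.7e-12). ASNS differed by -1.96, ALDH1L2 by -2.32, DDIT3 by -1.88, ATF4 by -1.02 and TRIB3 by -0.76. The members higher in A549 were led by NUPR1 (2.51) and SLC7A5 (1.45), followed by SLC3A2, PSPH, CEBPB and CEBPG. Without control replicate 5 the counts were 4 higher (against 33.9% of genes) and 20 lower (against 17.7%). They were 4 higher (against 27.5%) and 19 lower (against 26.3%) when libraries were brought to a common median. That scaling shifts this comparison by -0.22 for all genes. CHAC1 was called only without replicate 5 (-1.93, against -1.08 with it).

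In NCI-H460 most calls came with candidate 42 ASO3: 5 members were higher (16.1%, against 13.2% of all genes) and 13 lower (41.9%, against 32.8%). These shares are near those of all genes. By role, 2 of 8 transcription factors were higher and 1 lower, 2 of 4 feedback and stress regulators were higher, 4 of 6 serine and one-carbon enzymes were lower, and 3 of 5 amino acid transporters were lower. ALDH1L2, the mitochondrial folate dehydrogenase, had 3.28 and 3.93 TPM with ASO3, against 13.3 and 12.5 TPM in control (-1.71 ± 0.16, n = 2 against 2, limma adjusted p = 0.00019). VLDLR had 4.79 and 6.11 TPM, against 14.2 and 14.0 TPM (-1.30 ± 0.14, adjusted p = 0.00027). MTHFD2 had 297 and 303 TPM, against 554 and 604 TPM (-0.95 ± 0.10, adjusted p = 0.00031). In each of these the ASO3 libraries lay well below both controls.

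The arginine transporter SLC7A1 fell by 1.08 ± 0.14 on the log2 scale (18.5 and 24.4 TPM, against 47.0 and 44.2 TPM, limma adjusted p = 0.00058), XPOT by 1.06 ± 0.15 and the glutamine and alanine transporter SLC38A2 by 0.95 ± 0.15. PSAT1 fell by 0.82 ± 0.12 (201 and 196 TPM, against 351 and 351 TPM), and PSPH by 0.52. CBS, SLC7A5, CEBPG, CTH and STC2 fell by 0.34 to 0.41. PHGDH (0.14) and SHMT2 (-0.03) did not pass. ALDH1L2, VLDLR, SLC7A1, XPOT, MTHFD2, SLC38A2 and PSAT1 passed under all 9 other settings. CBSL, a near-identical copy of CBS, averaged 0.163 TPM in A549 and 27.9 TPM in NCI-H460, so the CBS value in NCI-H460 may be split with it.

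Among the 5 members called higher, CEBPB had 379 and 271 TPM with candidate 42 ASO3, against 219 and 184 TPM (0.67 ± 0.15, limma adjusted p = 0.0074). CHAC1 had 62.5 and 45.3 TPM, against 39.4 and 31.2 TPM (0.59 ± 0.17, adjusted p = 0.018). PPP1R15A had 34.6 and 25.9 TPM, against 21.1 and 20.7 TPM (0.51 ± 0.14, adjusted p = 0.018). DDIT3 had 122 and 89.2 TPM, against 67.3 and 80.4 TPM (0.50 ± 0.17, adjusted p = 0.036), and DDIT4 had 628 and 614 TPM, against 480 and 475 TPM (0.38 ± 0.10, adjusted p = 0.011). Replicate 1 was the higher of the ASO3 libraries in all 5 genes. It had the fewest gene names above 0 of all 25 libraries, 23879 against 25778 in replicate 2, and a TPM sum of 1173905 against 995817, and the part of this in the result was not tested. ATF4 had 666 and 556 TPM, against 489 and 525 TPM (0.26 ± 0.12, adjusted p = 0.093), TRIB3 396 and 267 TPM, against 280 and 257 TPM (0.28, adjusted p = 0.20), and ASNS 195 and 140 TPM, against 205 and 222 TPM (-0.37, adjusted p = 0.096).

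Both the balance and the calls of this response depended on scale, and its sizes on which library was left out. The median gene fell by 0.20 in this comparison as deposited, and bringing the libraries to a common median (median-of-ratios scaling) moved all values by 0.21. The members then stood at 8 higher (against 23.7% of genes) and 7 lower (against 22.9%), with ATF4 (0.49), ATF3 (0.53) and SESN2 (0.44) added to the risen genes. The 7 that stayed lower were ALDH1L2, VLDLR, SLC7A1, XPOT, SLC38A2, MTHFD2 and PSAT1. With 1 ASO3 or control library left out, CEBPB ranged over 0.43 to 0.92, CHAC1 over 0.36 to 0.82 and DDIT3 over 0.28 to 0.73. ALDH1L2 then ranged over -1.83 to -1.60, MTHFD2 over -1.01 to -0.89 and XPOT over -1.32 to -0.80. Each of these fits leaves 1 library in an arm, which is then assumed to vary like the other NCI-H460 groups.

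**Figure D5:**
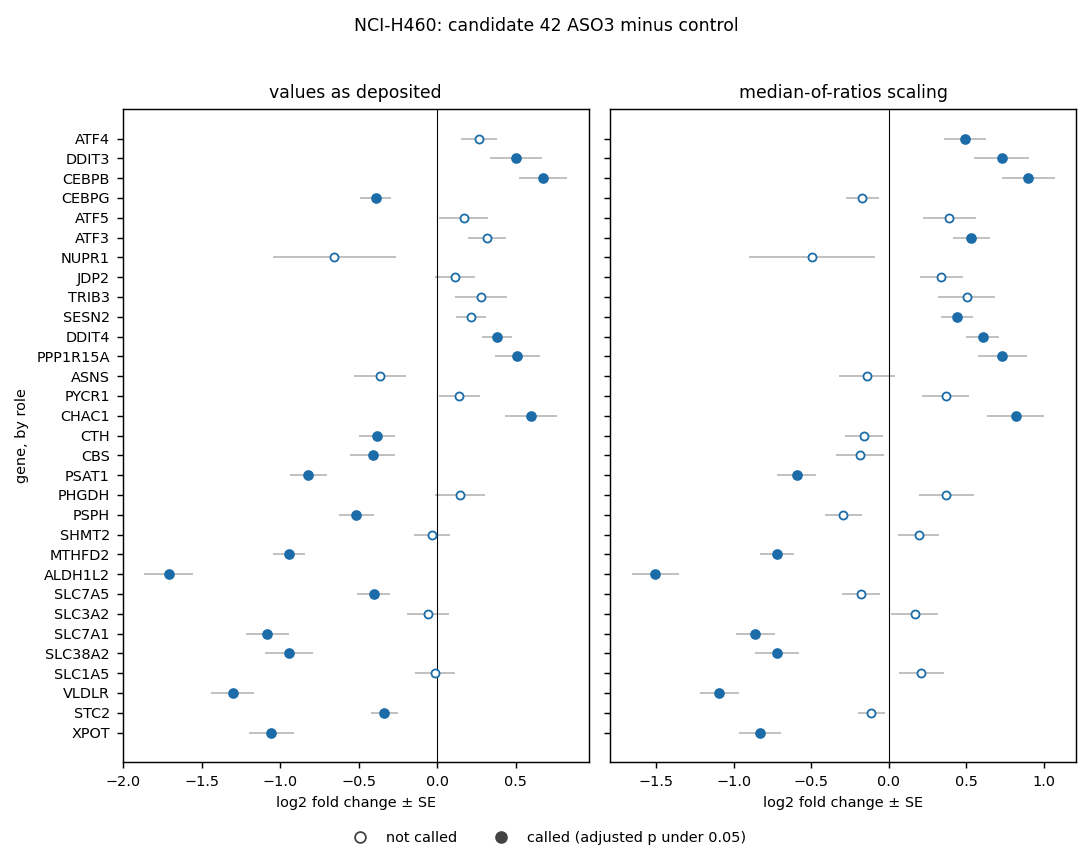
Log2 fold change ± SE of the 31 members for candidate 42 ASO3 minus control in NCI-H460, with the values as deposited (left) and after median-of-ratios scaling (right). Filled points are called: 5 higher and 13 lower on the left, 8 higher and 7 lower on the right.

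In the other NCI-H460 groups at most 1 member was called, with 2 libraries against 2. Many members still lay clear of both controls. With candidate 240 ASO3 9 lay above and 16 below, against 28% and 32.5% of genes. The counts were 11 and 13 with candidate 42 ASO5 (29.1% and 25.4%), and 5 and 9 with candidate 240 ASO1 (22.1% and 24.7%). With limma 0 members were called with candidate 42 ASO5 (6 at an unadjusted p under 0.05, against 0.508% of genes called) and 0 with candidate 240 ASO1 (1 unadjusted, against 0%). With candidate 42 ASO5 the log2 differences were -0.08 for ATF4, 0.32 for DDIT3, 0.06 for TRIB3, -0.29 for ASNS and 0.29 for CHAC1. With candidate 240 ASO1 they were -0.01, -0.01, 0.07, -0.13 and 0.19 in the same order. Candidate 240 ASO3 had 1 member lower (against 3.01% of genes) and 0 higher: ALDH1L2, with 7.94 and 6.21 TPM against 13.3 and 12.5 TPM (-0.83 ± 0.16, adjusted p = 0.021), a call that ended without either control library or without ASO3 replicate 2. Its CHAC1 libraries had 50.8 and 47.9 TPM, against 39.4 and 31.2 TPM (0.49, adjusted p = 0.12), and the differences were 0.05 for ATF4, 0.20 for DDIT3, -0.16 for TRIB3 and -0.27 for ASNS. Candidate 240 ASO3 and ASO1 differed in 0 members (8 unadjusted, against 2.92% of genes called), with differences of 0.06 for ATF4, 0.21 for DDIT3, -0.23 for TRIB3, -0.14 for ASNS and 0.29 for CHAC1.

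Between the candidate 42 ASOs in NCI-H460, ASO5 was higher than ASO3 in 10 members (32.3%, against 27.7% of genes) and lower in 1 (against 5.62%). The 10 were ALDH1L2 (1.06 ± 0.16), SLC7A1 (1.01 ± 0.14), VLDLR (0.95 ± 0.14), MTHFD2 (0.77), XPOT (0.77), SLC38A2 (0.72), STC2 (0.65), SLC7A5 (0.55), PSAT1 (0.54) and CEBPG (0.38), and SESN2 was lower (-0.33 ± 0.09, limma adjusted p = 0.028). SLC7A1 had 42.8 and 44.0 TPM with ASO5, against 18.5 and 24.4 TPM with ASO3. After median-of-ratios scaling the split was 7 higher (against 15.7% of genes) and 6 lower (against 14.2%), with a shift of -0.22 for all genes.

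The response to candidate 42 ASO3 was called different between the lines for 25.8% of members, near the 19.7% of all genes. The median of all genes in this difference was 0.15. The A549 change exceeded the NCI-H460 change for 7 members (against 15.5% of genes) and lay below it for 1 (against 4.22%). ALDH1L2 changed by -0.02 in A549 and -1.71 in NCI-H460, a difference of 1.69 ± 0.46 (limma adjusted p = 0.020). VLDLR changed by 0.15 and -1.30 (adjusted p of the difference 0.0089), XPOT by 0.37 and -1.06 (adjusted p = 0.013) and PSAT1 by 0.13 and -0.82 (adjusted p = 0.011), A549 given first. MTHFD2, CTH and PSPH also differed, and SLC7A5 fell further in A549 (-0.99 and -0.41, adjusted p = 0.046). Leaving out NCI-H460 candidate 42 ASO3 replicate 1 ended all 8 calls, and leaving out A549 control replicate 5 gave 13 higher (against 18.4% of genes) and 0 lower. After median-of-ratios scaling, which shifts this difference by -0.24, there were 4 higher (against 8.06% of genes) and 4 lower (against 9.16%).

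For the other ASOs limma called 0 members as differing between the lines: candidate 42 ASO5 (6 at an unadjusted p under 0.05, against 0.0339% of genes called), candidate 240 ASO1 (0 unadjusted, against 0%) and candidate 240 ASO3 (8 unadjusted, against 1.21%). Without A549 control replicate 5, the candidate 240 ASO3 response was larger in A549 for 7 members, against 0.413% of genes. These were ASNS (1.56 ± 0.25, adjusted p = 0.0042), TRIB3 (1.21), CHAC1 (1.13), MTHFD2 (1.10), CBS (1.08), PSAT1 (1.00) and CEBPG (0.82). ASNS then changed by 1.29 in A549 and -0.27 in NCI-H460. Control replicate 5 was singled out on these same genes, where it was high. These values and calls without it are therefore a description and not an independent test.

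Other genes of the pathway were read from lists drawn up for these data. They are set against the share of all genes called higher and lower in A549, which was 3.43% and 6.63% with 42 ASO3, 1.42% and 2.4% with 42 ASO5, 6% and 7.82% with 240 ASO3, and 0% with 240 ASO1. Among 18 kinases and regulators of eIF2, A549 had 1 higher with candidate 42 ASO3 (the eIF2 subunit EIF2S1, 0.34), 1 higher and 2 lower with 42 ASO5 (EIF2S1 0.43, the kinase GCN2, gene EIF2AK4, -0.53, and EIF2B5 -0.45) and 0 with either candidate 240 ASO. Among 20 aminoacyl-tRNA synthetases 2 were higher and 1 lower with 42 ASO3 (WARS1 0.51, RARS1 0.40 and MARS1 -0.65), and 0 changed with the other 3 ASOs. Among 18 further ATF4 targets 1 was higher with 42 ASO5 (ALDH18A1, 0.32) and 1 with 240 ASO3 (MAP1LC3B, 0.34). Of 14 endoplasmic reticulum chaperones and partners, 8 fell with 42 ASO3 (PDIA4 -0.84, CALR -0.83, HYOU1 -0.80 and HSPA5 -0.76 among them) and 7 fell with 240 ASO3 (PDIA4 -0.69, CALR -0.65, XBP1 -0.52, HSP90B1 -0.51), with 0 higher. Without control replicate 5 the chaperone counts were again 8 and 7, against 4.73% and 5.83% of all genes lower. The calls of WARS1, RARS1, EIF2AK4, EIF2B5 and ALDH18A1 ended without it, and those of RARS1, EIF2B5 and ALDH18A1 ended under 9 of 12 other settings in all. Those of EIF2S1 and MARS1 with 42 ASO3, EIF2S1 with 42 ASO5 and MAP1LC3B with 240 ASO3 held without it. Calls gained without it were the synthetase GARS1 with 42 ASO3 (0.37), 42 ASO5 (0.64) and 240 ASO3 (0.54), BCAT1 with 42 ASO3 (0.86), and PCK2 with 42 ASO5 (0.58) and 240 ASO3 (1.04), the further targets then numbering 17 past the filter.

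The same lists were read for candidate 240 ASO3 against ASO1 in A549, which needs no control library. Among all genes 7.25% were higher and 9.48% lower there. Of 18 further ATF4 targets 5 were higher and 1 lower, led by the peptide ADM2 (1.27) and the gluconeogenic enzyme PCK2 (1.14), with the stress cytokine GDF15 at 0.64 and the glycine transporter SLC6A9 at 0.58. Of 14 chaperones 0 were higher and 7 lower, led by PDIA4 (-0.73), CALR (-0.68) and HSP90B1 (-0.61), with HSPA5 (BiP) at -0.50. In NCI-H460 with candidate 42 ASO3 the genes that fell were 9 of 18 eIF2 genes (IMPACT -1.31, DNAJC3 -0.81), 10 of 20 synthetases (IARS1 -1.02 among them), 10 of 19 further targets (the cystine transporter SLC7A11 -1.56, ERO1A -1.01, VEGFA -0.93) and 10 of 14 chaperones (SEL1L -1.94, HSPA5 -0.77), against the 32.8% of all genes lower there. The numbers higher were 1, 3, 0 and 1, against 13.2% of all genes. After median-of-ratios scaling the lists stood at 3 higher and 6 lower, 5 and 5, 1 and 6, and 1 and 6. All genes then stood at 23.7% higher and 22.9% lower. With candidate 42 ASO5 IARS1 (-0.58) was the 1 gene of these lists called in NCI-H460, and with candidate 240 ASO1 limma called 0. With candidate 240 ASO3 the genes lower were OMA1, a mitochondrial protease upstream of eIF2 phosphorylation (-0.69), WARS1 (-0.67), SLC7A11 (-0.99) and 3 chaperones (SEL1L -1.02, HSPA5 -0.42 and HYOU1 -0.41). All 6 of these calls and that of IARS1 with 42 ASO5 ended without control replicate 2. In all, the 6 ended under 2 (SLC7A11) to 7 (HSPA5) of 9 other settings, and that of IARS1 under 4.

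The authors' deposited tables, made with sleuth from the same libraries, were read at q under 0.05 and matched the limma calls only in part. SLC7A5 was the 1 member lower with 42 ASO3 (11.3% of genes passing) and with 240 ASO3 (11.6%) in A549 in the authors' deposited table, with 0 members for 42 ASO5 (5.56%) and 240 ASO1 (0%). In NCI-H460 the authors' deposited table had 10 members higher and 13 lower with 42 ASO3, where 49.3% of genes passed, 0 with 42 ASO5 and 240 ASO1 (0% each), and 2 higher (CHAC1 and SESN2) and 4 lower (ALDH1L2, VLDLR, SLC7A1 and XPOT) with 240 ASO3 (6.91%). With 42 ASO3 there ATF4 passed (0.34, sleuth q = 0.049) and DDIT3 did not (0.59, sleuth q = 0.074), the reverse of the limma calls. Some uncalled A549 values had the other sign in the authors' tables. Among them were DDIT3 with 240 ASO3 (-0.35) and CHAC1 with 42 ASO3 (-0.28) and 42 ASO5 (-0.19).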

How the data were processed

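RNA was sequenced from 25 libraries. Per the submitters' processing notes the reads were quantified with kallisto on hg38 and compared with sleuth 0.30. The main table holds the signal of each gene name in each library, deposited by the authors as TPM rescaled so that the libraries sum to different totals, and the depth behind it is unknown. The authors' deposited comparison tables hold log2 fold changes, q-values and group means as signal, and these were used only where named. Gene starts and ends in those tables are, per the file headers, hg38 positions.

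Values were analysed as log2(TPM + 0.5) in R 4.3.3 with limma 3.58.1 (empirical Bayes with a mean-variance trend, Benjamini-Hochberg adjustment over all genes tested, threshold 0.05). A gene was kept at a mean of at least 1 TPM in the line, leaving 14740 genes in A549, 13774 in NCI-H460 and 14769 over both lines. Fold changes on this scale understate those of low genes. Each line was fitted over its 5 groups, and differences between lines over both. No library was dropped or imputed unless stated. On simulated data with 200 genes changed 2-fold, 61.5% were recovered in a simulation of A549 candidate 42 ASO3 minus control (14538 genes, 4 false calls). In one of the same NCI-H460 comparison 64.5% were recovered (13596 genes, 7 false calls). The simulated libraries varied independently and only the 200 genes changed. In the data 10.1% of genes were called in that A549 comparison and 46% in the NCI-H460 one, so these rates need not hold there.

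Replicate numbers were taken to pair A549 libraries where every same-numbered pair deviated together (r above 0.1). This held for candidate 240 ASO1 minus control (0.170 to 0.410), 240 ASO3 minus control (0.283 to 0.564), 240 ASO3 minus ASO1 (0.244 to 0.479), 42 ASO5 minus ASO3 (0.128 to 0.411) and 42 ASO5 minus 240 ASO1 (0.102 to 0.261). It did not hold for the other A549 comparisons. At least 3 pairs were also required, so NCI-H460, with 2 pairs per comparison, was not taken as paired. There r was 0.195 for candidate 42 ASO5 minus ASO3 and at most 0.0823 in the other comparisons. Alternatives were another pseudocount (1), no filter, median-of-ratios scaling, the replicate block, a fit to the compared groups alone and leaving out each library. The members and gene lists were chosen with earlier results of these data known. Genes named are all members called in the main fits against control, between ASOs and between the responses of the lines. ATF4, DDIT3, TRIB3, ASNS and CHAC1 are named in each comparison with control. Members called between the control libraries of the lines, or only in other settings, are named in part. Others are named after their values were seen. How strand was handled is not known here.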

Additional observations from a re-analysis of the deposited data

Results flagged for a closer look

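The response to candidate 42 ASO3 differed between A549 and NCI-H460 for 8 members (25.8%, against 19.7% of all genes), by the limma test of the difference itself. That share is near the share of all genes. On the log2 scale the A549 change exceeded the NCI-H460 change by 1.69 for ALDH1L2, 1.45 for VLDLR, 1.42 for XPOT, 0.99 for MTHFD2, 0.95 for PSAT1, 0.87 for CTH and 0.54 for PSPH. For SLC7A5 the difference was -0.58. All 8 calls ended in a fit to the compared groups alone. Those of MTHFD2 and PSPH ended under 11 and 12 of 15 other settings. The group sizes of 3 and 2 libraries are too small for a rule on single outlying samples.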

How the results depend on the processing

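TPM keeps no depth, and groups of 3 and 2 libraries limit what can be called. Counts below are members called with limma. Those without a filter, from the compared groups alone and with 1 library left out have no share of all genes beside them. They give only how far the number of calls moved with the setting, and are no result about the members. Without a filter on low values 1 was called for A549 candidate 42 ASO3, 1 for 240 ASO3, 1 for 42 ASO5 minus ASO3, 4 for 240 ASO3 minus ASO1, 0 for 42 ASO5 minus 240 ASO1, 4 for the difference between lines in the 42 ASO3 response, and 0 for NCI-H460 240 ASO3. Fits to the compared groups alone gave 1, 1, 12 and 10 for A549 42 ASO3, 240 ASO3, 240 ASO3 minus ASO1 and 42 ASO5 minus 240 ASO1, and 4 for 42 ASO3 minus 240 ASO1. They gave 9, 2 and 7 for NCI-H460 42 ASO3, 240 ASO3 and 42 ASO5 minus ASO3, 15 for the control libraries of the 2 lines, and 0 for the line difference in the 42 ASO3 response.

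With the replicate block A549 had 4 called for 42 ASO3 (against 21.1% of all genes) and 2 for 42 ASO5 (10.4%). It had 6 for 240 ASO3 (25.1%), 7 for 42 ASO5 minus ASO3 (21.4%) and 15 for 240 ASO3 minus ASO1 (29.9%). Further counts were 4 for 42 ASO3 minus 240 ASO1 (19.2%) and 4 for 42 ASO5 minus 240 ASO1 (10.8%). The line differences had 13 for 42 ASO3 (38.2%) and 3 for 240 ASO3 (3.62%). With the block and without control replicate 5 the counts were 12, 12 and 16 for A549 42 ASO3, 42 ASO5 and 240 ASO3. The shares of all genes there were 15.8%, 6.63% and 19.6%. In that fit DDIT3 stood at 0.52 for 42 ASO3 and 0.72 for 42 ASO5, and for 240 ASO1 ASNS stood at 0.050 and CHAC1 at 0.018, each with its sign turned. The replicate number paired neither A549 candidate 42 ASO with control nor any NCI-H460 comparison, so their blocked counts rest on a shared number only.

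Leaving out 1 library at a time gave 1 to 3 called for A549 42 ASO3, 0 to 8 for 42 ASO5, 1 to 11 for 240 ASO3, 1 to 3 for 42 ASO5 minus ASO3, 4 to 5 for 240 ASO3 minus ASO1 and 0 for 42 ASO5 minus 240 ASO1. It gave 10 to 22 for NCI-H460 42 ASO3, 0 to 1 for 240 ASO3 and 8 to 18 for 42 ASO5 minus ASO3. The line differences ranged over 0 to 13 for 42 ASO3, 0 to 1 for 42 ASO5 and 0 to 7 for 240 ASO3. The upper end in A549 against control was always the fit without control replicate 5.

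Signs of uncalled values also turned when 1 library was left out. With A549 42 ASO3, ATF4 ranged over -0.017 to 0.27, DDIT3 -0.91 to 0.51, ASNS -0.17 to 0.56, TRIB3 -0.14 to 0.60 and CHAC1 -0.24 to 1.09. With 42 ASO5, DDIT3 ranged over -0.71 to 0.70, ASNS -0.012 to 0.73, TRIB3 -0.090 to 0.65 and CHAC1 -0.14 to 1.19. With 240 ASO1, ASNS ranged over -0.67 to 0.072 and CHAC1 -1.27 to 0.060, and with 240 ASO3, ATF4 -0.018 to 0.29 and DDIT3 -0.39 to 1.03. In NCI-H460 TRIB3 ranged over -0.0095 to 0.56 with 42 ASO3, and ATF4 over -0.16 to 0.0032 and TRIB3 over -0.049 to 0.17 with 42 ASO5. ATF4 ranged over -0.080 to 0.053 and DDIT3 over -0.19 to 0.17 with 240 ASO1, and ATF4 over -0.00378 to 0.097 with 240 ASO3. Under median-of-ratios scaling DDIT3 stood at 0.0036 with NCI-H460 240 ASO1. The cause was not tested.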
